A study of Drosophila melanogaster with 11 samples.

Results

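Serpins are proteins that trap and inactivate serine proteases, and the proteases considered here are those that circulate in insect blood and activate Toll signalling and melanization. The group was formed by name. It took every gene whose symbol is Spn followed by a number and letters, and the serine proteases or homologues SPE, grass, psh, Hayan, MP1, Sp7, ea, spirit, modSP and SPH93. This gave 37 of the 13931 genes in the table, of which 27 were serpins and 10 were proteases or homologues. The rule itself uses names and no measured value.

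The fat body secretes most blood proteins of the larva, including components of this cascade. In the fly, recognition of fungal or bacterial cell walls acts through modSP and grass, and microbial proteases act on psh and Hayan. Both routes lead to SPE, which cuts the ligand Spätzle so that it can bind the receptor Toll. A related set of proteases with Hayan, Sp7 and MP1 activates prophenoloxidase, the enzyme that makes melanin, and serpins restrain both outcomes.

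Poly-A RNA was measured in dissected fat bodies of female larvae late in the wandering phase of the last instar from 5 isofemale strains, lines each founded by 1 wild-caught female of a German population from Munich. The strains were MU10, MU12, MU14, MU17 and MU26, with 3 libraries for MU14 and 2 for each other strain. All larvae were raised at 25°C at 250 per vial and none was infected or treated according to the labels, so no strain is a control. Each replicate was a separate pool of dissected tissue, and a difference between strains is a difference between single lines.

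Libraries held 34631482 to 49582725 counts, with a median of 38321327. The fat body markers summed to 298400 to 453500 normalised counts (CPM, counts scaled to the library total) per library, so the labelled tissue was present. Of these 7 markers Fbp1, Fbp2 and Lsp2 differed between strains, and Fbp1 averaged 323400 CPM in MU26 and 174400 to 233600 in the other strains. Haemocyte markers summed to 27.3 to 88.1 CPM, crystal cell markers to 6.78 to 89.9, muscle to 19.3 to 93.0, salivary gland to 3.68 to 146, midgut to 0.792 to 18.7 and female germ line to 1.81 to 9.89. Of all genes tested 48.3% differed between strains. Of the haemocyte markers 5 of 6 tested differed between strains, and of the crystal cell markers PPO1 and PPO2 did, both lowest in MU26, while lz was too low to test. The salivary gland marker ng1 was at 0 in all libraries, but the 7 other salivary markers all differed between strains. Their highest means were in MU14 and MU17. The female germ line markers vas and aub also differed, with the highest means in MU14, while osk and bam were too low to test. Whether such tissue had a part in the differences below was not tested. In bulk tissue, fewer cells of a type and less RNA per cell cannot be told apart.

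Values below are CPM after TMM scaling, a correction for differences in library composition. A gene was tested where its counts averaged 15 or more over the libraries, and was called at a Benjamini-Hochberg adjusted p below 0.05 in edgeR's quasi-likelihood test over all 8415 genes tested. Of the 37 members 24 passed this filter, 15 of them serpins and 9 proteases or homologues. The filter uses the mean over all libraries, and 23 of the 24 also reached it within every strain. The exception was Spn100A.

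Across the 5 strains 14 of the 24 tested members were called, or 58.3%, against 48.3% of all genes tested. The proteases were called in 8 of 9 cases and the serpins in 6 of 15. The called proteases were spirit, grass, Sp7, SPE, psh, SPH93, MP1 and modSP, and the called serpins were Spn42Da, Spn42Db, Spn42Dc, Spn42Dd, Spn42De and Spn43Ad. In at least 1 of the 10 pairs of strains 17 of 24 members were called, against 59.9% of all genes. The range between the highest and lowest strain mean, on the scale of log2(CPM + 0.1), had a median of 1.34 over the tested members and 0.76 over all tested genes. Such a range also holds the spread between replicates. In every pair of replicates the median difference was larger for members than for all genes, in MU12 for example 0.37 against 0.26. The plot of normalised counts by library shows how these ranges arose gene by gene.

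**Figure D1:**
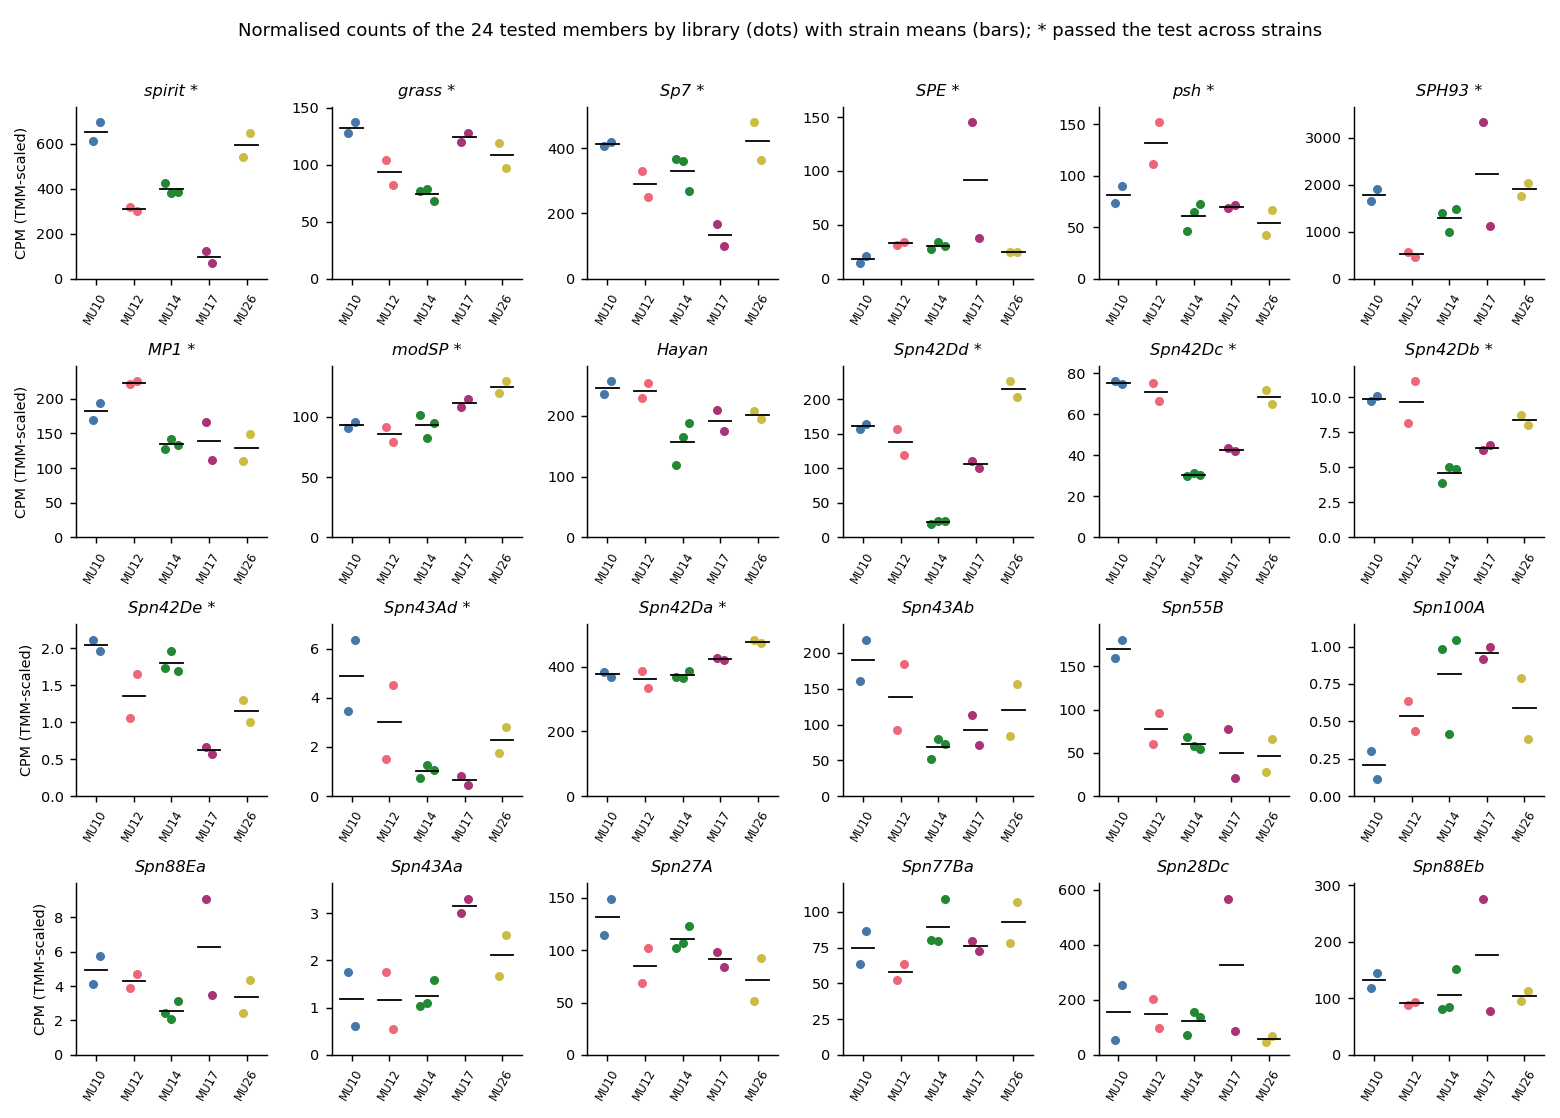
Each panel plots 1 of the 24 tested members, with normalised counts (CPM after TMM scaling, linear axis from 0) by strain, a dot for each library and a bar for the strain mean. The 9 proteases and homologues come first and the 15 serpins after them, each in order of adjusted p, and an asterisk marks the 14 members called across strains. Spn42Dd is lowest in all 3 MU14 libraries, spirit and Sp7 are lowest in both MU17 libraries, and SPE is high in 1 MU17 library.

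The highest and lowest means fell to different strains. MU10 had the highest mean for 10 of the 24 members, MU17 for 7, MU26 for 5, MU12 for 2 and MU14 for 0. MU14 had the lowest mean for 7 members, MU12 for 6, MU26 for 5, MU17 for 4 and MU10 for 2. Over all tested genes the highest mean fell to MU10 in 18.3%, to MU17 in 20.5%, to MU26 in 21.6%, to MU12 in 23.4% and to MU14 in 16.3%, and the lowest to MU14 in 18.0%, to MU12 in 21.6%, to MU26 in 21.7%, to MU17 in 19.0% and to MU10 in 19.8%. Without the first MU17 library, MU17 was highest for 3 members and lowest for 7, MU10 was highest for 13 and MU26 lowest for 3. Without the first MU26 library MU26 was lowest for 1 member, without the first MU12 library MU12 was highest for 4, and MU14 was highest for up to 2 without 1 of its own libraries or the second MU26 library. These counts were not tested, because neighbouring genes and genes of 1 pathway are not independent.

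The protease modSP starts the cascade after recognition of microbial cell walls. It had 120 and 129 CPM in MU26, 108 and 115 in MU17, 101, 82.2 and 94.5 in MU14, 90.7 and 95.2 in MU10, and 91.5 and 78.9 for MU12. Both MU26 libraries were above those of every other strain, and the ranges of MU10, MU12 and MU14 overlapped. The log2 difference of MU26 minus MU12 was 0.55 ± 0.13 (SE; adjusted p = 0.018), the smallest of the called proteases. The call across strains (adjusted p = 0.032) was lost under 10 of 19 alternative settings, where its adjusted p reached 0.097.

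Downstream of modSP stands grass, a clip-domain protease of the same route. It had 127 and 137 CPM in MU10, 120 and 128 in MU17, 119 and 97.2 in MU26, 104 and 82.4 in MU12, and 76.5, 78.5 and 68.3 in MU14. All 3 MU14 libraries lay below all other libraries. MU10 minus MU14 was 0.83 ± 0.14 on the log2 scale (adjusted p = 0.0049), and the call across strains (adjusted p = 0.0075) held in all 19 alternatives. The step between MU12 and MU14, next to each other in this order, was not called (0.33, adjusted p = 0.12).

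The clip-domain protease spirit was placed on the Toll route by knock-down in the fly, and it was the called protease with the smallest adjusted p across strains, 0.00059. It had 610.1 and 695 CPM in MU10, 539 and 646 in MU26, 426, 380.0 and 385 in MU14, 317 and 299.8 in MU12, and 124 and 67.4 in MU17. Both MU17 libraries were below the other 9. MU10 minus MU17 was 2.77 ± 0.26 on the log2 scale (adjusted p = 0.00045), a 6.82-fold ratio of the means. Each of the other strains exceeded MU17, by 1.69 against MU12 up to 2.77 against MU10, with adjusted p of at most 0.0026. MU10 and MU26, at the top of the order, did not differ (0.14, adjusted p = 0.74).

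Sp7 is a clip-domain protease needed for melanization. It had 479 and 365 CPM in MU26, 406 and 419 in MU10, 366, 362 and 268 in MU14, 330.0 and 251 in MU12, and 166 and 101 in MU17. As for spirit, the 2 MU17 libraries lay below all others, while the ranges of the 4 other strains overlapped in part. MU26 minus MU17 was 1.66 ± 0.27 on the log2 scale (adjusted p = 0.0040), and the smallest excess of any strain over MU17 was that of MU12, 1.12 (adjusted p = 0.021). The call across strains had an adjusted p of 0.0081.

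SPE, the Spätzle-processing enzyme, joins the routes to Toll. It had 145 and 37.8 CPM in MU17, 31.6 and 34.3 for MU12, 27.5, 33.8 and 30.0 in MU14, 24.5 and 24.4 in MU26, and 14.8 and 21.4 in MU10. The first MU17 library was 3.84 times the second, and the second still exceeded all 9 libraries of the other strains. Exons of SPE share 107 bases with another gene, CG18754. MU17 minus MU10 was 2.34 ± 0.51 on the log2 scale (adjusted p = 0.015), with an adjusted p of 0.019 across strains. Without the first MU17 library the test across strains gave an adjusted p of 0.020 and MU17 minus MU10 was 1.07 (adjusted p = 0.019). The differences of MU17 minus MU14 (1.59, adjusted p = 0.040) and MU26 minus MU17 (-1.90, adjusted p = 0.029) became 0.31 (adjusted p = 0.39) and -0.63 (adjusted p = 0.10).

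SPH93, named as a serine protease homologue, was the most abundant member per length, with 973 CPM per kilobase over the strains. It had 3330 and 1118 CPM in MU17, 1766 and 2035 in MU26, 1655 and 1916 in MU10, 1393, 1004 and 1487 in MU14, and 571 and 461 in MU12. The MU12 libraries were the 2 lowest of the 11, and the 2 MU17 libraries lay on both sides of MU10 and MU26. Every other strain exceeded MU12, from 1.33 for MU14 to 2.11 ± 0.44 for MU17 on the log2 scale, with adjusted p of at most 0.040. The call across strains (adjusted p = 0.026) was lost without the first MU12 library (adjusted p = 0.078) or the second (adjusted p = 0.11). Without the first MU17 library MU17 minus MU12 was 1.12 (adjusted p = 0.024).

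The neighbouring genes psh and Hayan on the X chromosome encode related clip-domain proteases that sense microbial proteases. They lie on 1 strand with 714 bases between them, at X:18484487-18486921 for psh and X:18479983-18483772 for Hayan (Release 6 coordinates). For psh the libraries had 111 and 152 CPM in MU12, 73.4 and 90.0 in MU10, 68.8 and 71.3 in MU17, 46.6, 65.3 and 72.3 in MU14, and 42.5 and 66.4 in MU26. Both MU12 libraries were above all others. MU12 minus MU26 was 1.27 ± 0.27 on the log2 scale (adjusted p = 0.010), and the adjusted p across strains was 0.019. It was 0.11 without the second MU12 library.

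Hayan followed psh in part. MU10 and MU12 had the highest means of both genes, and MU14 minus MU12 was -1.1 for psh (adjusted p = 0.012). Hayan had 236 and 257 CPM in MU10, 229 and 253 for MU12, 208 and 194 in MU26, 209 and 175 in MU17, and 119, 164 and 188 in MU14. It was not called across strains (adjusted p = 0.066), although it was called with DESeq2 (adjusted p = 0.017) and without the third MU14 library (adjusted p = 0.045). Of the pairs, MU14 minus MU10 (-0.65, adjusted p = 0.039) and MU14 minus MU12 (-0.62, adjusted p = 0.037) were called. The ratio of psh to Hayan counts within a library, which does not depend on scaling between libraries, was 0.487 and 0.601 in MU12 and 0.205 to 0.406 in the other strains. Exons of Hayan share 872 bases with an antisense RNA gene, so its counts are less certain.

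MP1 is a clip-domain protease of the melanization cascade. It had 221 and 225 CPM in MU12, 169 and 194 in MU10, 166 and 112 in MU17, 128, 142 and 133 in MU14, and 110.0 and 149 in MU26. The MU12 libraries were above all others, and MU12 minus MU26 was 0.79 ± 0.21 on the log2 scale (adjusted p = 0.024). All 1525 exon bases of MP1 are also covered by Vps24 on the other strand, whose libraries ranged from 39.4 to 83.0 CPM and were highest on average in MU12. Strand use in the counting was not stated, so how reads were divided between them is uncertain. The call across strains (adjusted p = 0.031) was lost under 8 of 19 alternatives, where the adjusted p reached 0.099.

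The last protease, ea (easter), cuts Spätzle in the embryo. It had 1 to 8 counts per library and was not tested.

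Among the serpins the 5 genes of the 42D cluster were called across strains, the call of Spn42Da being the least stable. They lie between 2R:6875906 and 2R:6888262, in the order Spn42Da, Spn42Db, Spn42Dc, Spn42Dd and Spn42De, the first pair on the minus strand and the others on the plus strand. Spn42Da encodes an inhibitor of furin-type proteases, and Spn42Dd restrains Toll signalling after fungal recognition. Their order of strains differed, as the plot of the cluster shows.

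**Figure D2:**
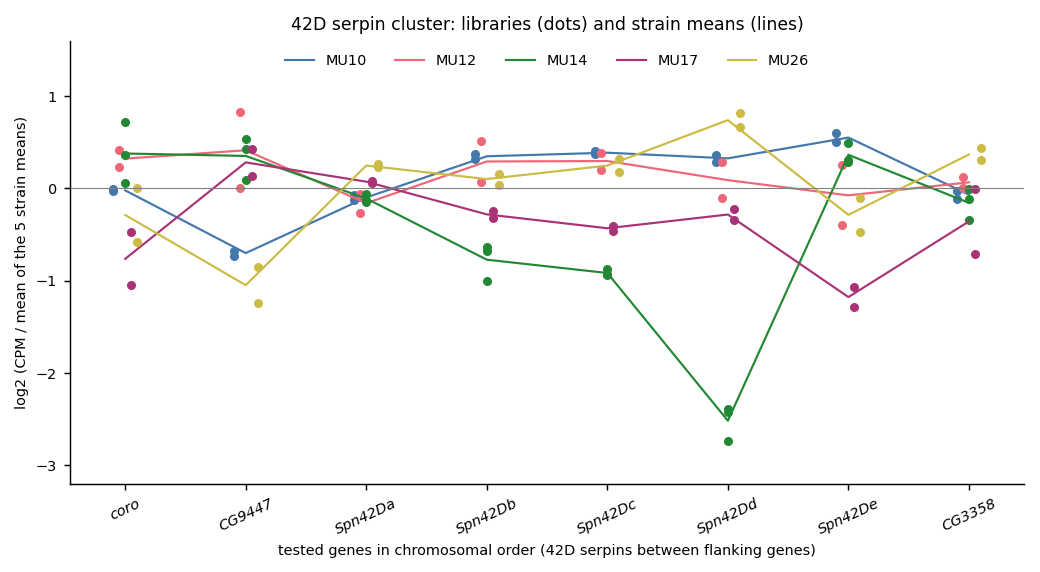
The vertical axis gives log2 of CPM over the mean of the 5 strain means, for tested genes in chromosomal order along the 42D serpin cluster and its flanks on the horizontal axis. Dots are libraries and lines join strain means, coloured by strain. Spn42Dd is far below the other strains in the 3 MU14 libraries, Spn42De is lowest in MU17, and Spn42Da varies little.

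Spn42Dd had the smallest adjusted p across strains of all members, 2.2e-05. It had 226 and 203 CPM in MU26, 157 and 165 in MU10, 157 and 119 for MU12, 109.9 and 101 in MU17, and 19.3, 24.0 and 24.4 in MU14. The 3 MU14 libraries were far below the other 8. MU26 minus MU14 was 3.25 ± 0.16 on the log2 scale (adjusted p = 7.7e-06), a 9.51-fold ratio of means. The smallest excess of a strain over MU14 was that of MU17, 2.23 (adjusted p = 6.1e-05). The 4 other strains showed no called step between neighbours in their order, but strains further apart did differ. MU26 minus MU17 was 1.02 (adjusted p = 0.0041), MU26 minus MU12 0.64 (adjusted p = 0.024) and MU17 minus MU10 -0.61 (adjusted p = 0.038).

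Spn42Dc, the next gene upstream on the same strand, was also lowest in MU14. It had 76.1 and 74.4 CPM in MU10, 75.4 and 66.3 for MU12, 71.8 and 64.9 in MU26, 43.4 and 41.9 in MU17, and 29.9, 31.3 and 30.2 in MU14. The strains formed 3 separate levels, since MU26 exceeded MU17 by 0.68 (adjusted p = 0.0029) and MU17 exceeded MU14 by 0.48 (adjusted p = 0.010), while MU10, MU12 and MU26 overlapped. MU10 minus MU14 was 1.30 ± 0.094 on the log2 scale (adjusted p = 8.6e-05). Without the first MU17 library MU17 minus MU14 was 0.46 (adjusted p = 0.066), so MU14 was then no longer below every other strain by the test. Spn42Dc and Spn42Dd share 63 exon bases, and read pairs that matched both were discarded.

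Spn42Db, on the other strand, had 9.72 and 10.1 CPM in MU10, 8.15 and 11.2 for MU12, 8.71 and 8.01 in MU26, 6.23 and 6.59 in MU17, and 3.88, 5.03 and 4.86 in MU14. MU14 libraries were again the lowest, with no overlap. MU10 minus MU14 was 1.11 ± 0.16 on the log2 scale (adjusted p = 0.0025; across strains 0.0031), but MU17 minus MU14 (0.48) was not called (adjusted p = 0.076).

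Spn42De and Spn42Da departed from this order. For Spn42De the libraries had 2.12 and 1.97 CPM in MU10, 1.73, 1.96 and 1.70 in MU14, 1.06 and 1.66 in MU12, 1.30 and 1.01 in MU26, and 0.665 and 0.572 in MU17. Here MU14 lay near the top and both MU17 libraries at the bottom, with MU10 minus MU17 at 1.72 ± 0.27 (adjusted p = 0.0039; across strains 0.0065). Spn42Da varied least of the cluster, from 336 CPM in 1 MU12 library to 483 in 1 MU26 library, and MU26 minus MU12 was 0.40 ± 0.10 (adjusted p = 0.023; across strains 0.038). Its call across strains was lost under 11 of 19 alternatives.

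Ratios of counts within a library place the difference between neighbouring genes. The count of Spn42Dd over that of Spn42Da was 0.0521 to 0.0657 in MU14, 0.241 to 0.258 in MU17 and 0.354 to 0.468 in the other strains. Spn42Dd over Spn42Dc was 0.643 to 0.807 in MU14 and 1.79 to 3.15 elsewhere, so MU14 lay outside the range of the other strains for both ratios. The ratios are not corrected for length and compare libraries only. Exons of Spn42Da and Spn42Db share 281 and 380 bases with an antisense RNA gene, so their counts are less certain. The tested flanking genes coro and CG9447 were called across strains (adjusted p = 0.031 and 0.022), with MU14 highest for coro and MU12 highest for CG9447. CG3358 on the other flank was not called (adjusted p = 0.12).

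In the 43A cluster, Spn43Ad was called and Spn43Ab and Spn43Aa were not. Spn43Ad had 3.46 and 6.35 CPM in MU10, 1.53 and 4.51 for MU12, 1.77 and 2.81 in MU26, 0.745, 1.25 and 1.04 in MU14, and 0.825 and 0.466 in MU17. The MU10 range overlapped that of MU12, and the MU14 and MU17 libraries were the 5 lowest. MU10 minus MU17 was 2.92 ± 0.58 on the log2 scale (adjusted p = 0.011; across strains 0.012).

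Spn43Ab averaged 189 ± 40.5 CPM in MU10 and 68.6 ± 14.3 in MU14 (SD, n = 2 and 3), the only called pair of this gene (MU14 minus MU10 -1.47, adjusted p = 0.026), and its adjusted p across strains was 0.060. Spn43Aa ranged from 0.543 to 3.31 CPM and had an adjusted p across strains of 0.13. The cluster also holds necrotic (nec), a serpin that restrains psh and whose symbol falls outside the naming rule. It had 389 and 216 CPM in MU17, 249.7 and 291 in MU26, 228 and 317 in MU10, 183 and 223 for MU12, and 131, 163 and 190 in MU14. Its adjusted p across strains was 0.078, and its difference of MU17 minus MU14 was 0.91 ± 0.26 (adjusted p = 0.048).

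The serpins best known for restraining melanization were not called across strains. Spn27A, which inhibits the prophenoloxidase-activating step and, in the embryo, easter, had 115 and 149 CPM in MU10, 102, 107 and 123 in MU14, 98.7 and 83.8 in MU17, 68.5 and 102 in MU12, and 51.7 and 92.3 in MU26. Neighbouring strains overlapped in 3 of 4 steps of this order. MU10 minus MU26 was 0.88 ± 0.29 (adjusted p = 0.077; across strains 0.13). Across strains Spn27A was called only without the second MU26 library (adjusted p = 0.032).

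Spn77Ba restrains melanization in the tracheae. It had 78.5 and 107 CPM in MU26, 80.2, 79.6 and 109 in MU14, 80.0 and 72.6 in MU17, 63.4 and 86.5 in MU10, and 52.4 and 63.6 for MU12. All neighbouring strains overlapped, and MU26 minus MU12 was 0.68 ± 0.23 (adjusted p = 0.062; across strains 0.14). It was called across strains in none of the 19 alternatives, with adjusted p from 0.065 to 0.35.

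Spn28Dc, which restrains phenoloxidase activity in the fly, differed widely between replicates. It had 568 and 85.9 CPM in MU17, whereas MU10 had 55.0 and 256, MU12 had 202 and 97.7, MU14 had 73.2, 154 and 139, and MU26 had 45.6 and 67.8. Libraries of 1 strain differed by more than 2-fold in MU10, MU12, MU14 and MU17. MU17 minus MU26 was 2.53 ± 0.95 on the log2 scale and was not called (adjusted p = 0.092; across strains 0.23).

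The remaining tested serpins were not called across strains by edgeR, although DESeq2 called Spn55B and Spn100A, and Spn43Ab of the 43A cluster. Calls of Spn55B, Spn88Ea and Spn88Eb by edgeR without the second MU17 library rest, for MU17, on its first library alone. For Spn88Ea and Spn88Eb that library was the highest of the 11, with 9.08 and 276 CPM against 3.46 and 78.3 in the second. Spn55B had 160 and 180 CPM in MU10 and 21.1 to 95.9 in the other strains, so MU10 lay above all other libraries. Its adjusted p across strains was 0.068, and without the first MU17 library it was 0.010. Spn88Ea, which limits Toll activation in the fly, ranged from 2.11 to 9.08 CPM (adjusted p = 0.12) and its neighbour Spn88Eb from 78.3 to 276 CPM (adjusted p = 0.43). Spn100A had 0.118 to 1.04 CPM and an adjusted p of 0.088, but was called as higher in MU14 (adjusted p = 0.0497) and MU17 (adjusted p = 0.040) than in MU10, where it was lowest. It had 14 and 4 counts in MU10, below the filter, and passed only through the other strains. These calls are therefore not support for a difference between strains.

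Replicates within a strain differed most for a few members. Both MU17 libraries were prepared from the same strain, yet 6 of 24 members were over 2-fold higher in the first than in the second, against 5.06% of all tested genes. These were Spn28Dc (6.61-fold), SPE (3.84), Spn55B (3.69), Spn88Eb (3.53), SPH93 (2.98) and Spn88Ea (2.63). In that library the antimicrobial and other peptides induced through Toll summed to 20240 CPM, against 4209 CPM in the second MU17 library and 847 to 4728 CPM in the other 9. Of 17 such peptide genes tested, 17 were over 2-fold higher in the first MU17 library than in the second. Peptides induced through the Imd route summed to 1885 CPM there and to 72.6 to 789 CPM in the other 10 libraries. Their part in the member values was not tested. The proteases spirit and Sp7 were low in both MU17 libraries, and without the first of them spirit had a difference of MU17 minus MU10 of -3.27 (adjusted p = 0.00011) and Sp7 one of MU26 minus MU17 of 2.06 (adjusted p = 0.0055).

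**Figure D3:**
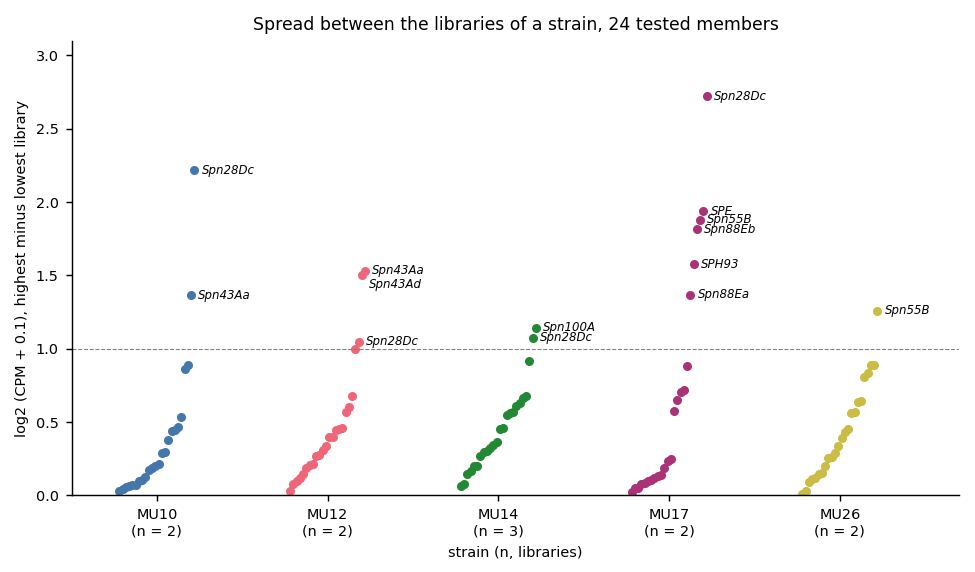
Each dot is 1 of the 24 tested members in 1 strain, and the vertical axis gives the log2 of (CPM + 0.1) in its highest library minus that in its lowest library of the strain. The dashed line marks a 2-fold spread, and members above it are named. MU17 has 6 members above the line and Spn28Dc exceeds it in 4 of the 5 strains.

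Pairs of strains show which lines differed in these genes. The 10 pairs share libraries and are not independent of each other. MU17 minus MU10 and MU17 minus MU12 had 9 members called each, against 19.0% and 21.0% of all genes. In MU17, SPE and Spn100A were higher than in MU10 (9.76% of all genes), and Sp7, spirit, Spn42Db, Spn42Dc, Spn42Dd, Spn42De and Spn43Ad were lower (9.21%). Spn100A passed the filter only through strains other than MU10. Against MU12, SPH93 was higher in MU17 (10.4% of all genes), and MP1, Sp7, psh, spirit, Spn42Db, Spn42Dc, Spn42De and Spn43Ad were lower (10.6%).

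MU14 minus MU10 and MU14 minus MU12 had 8 members called each, against 19.2% and 26.5% of all genes. Against MU10, Spn100A was higher in MU14 and Hayan, grass, Spn42Db, Spn42Dc, Spn42Dd, Spn43Ab and Spn43Ad were lower. As above, Spn100A reached the filter only through strains other than MU10. Against MU12, SPH93 was higher in MU14 and Hayan, MP1, psh, Spn42Db, Spn42Dc, Spn42Dd and Spn43Ad were lower. Called genes over the whole table were evenly split, with 9.63% higher and 9.57% lower in MU14 than in MU10, and 13.3% higher and 13.2% lower in MU14 than in MU12. Upper-quartile scaling moved the median difference of all genes by 0.15 (MU14 minus MU10) and 0.10 (MU14 minus MU12) on the log2 scale.

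MU26 minus MU12 and MU17 minus MU14 had 7 members called each, against 25.1% and 16.6% of all genes. SPH93, Spn42Da, Spn42Dd, modSP and spirit were higher in MU26 than in MU12 (11.9% of all genes), and MP1 and psh lower (13.2%). SPE, Spn42Dc, Spn42Dd and grass were higher in MU17 than in MU14 (8.38% of all genes), and Sp7, Spn42De and spirit lower (8.20%). Without the second MU12 library no member was called for MU26 minus MU12, against 15.5% of all genes.

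MU26 minus MU14 had 6 members called, against 19.9% of all genes. All were higher in MU26, as were 9.35% of all genes, and they were grass, modSP, Spn42Da, Spn42Db, Spn42Dc and Spn42Dd. MU26 minus MU17 had 5 called, against 20.9% of all genes, with Sp7, Spn42Dc, Spn42Dd and spirit higher in MU26 (9.77% of all genes) and SPE lower (11.2%). MU12 minus MU10 had 2 called, SPH93 and spirit, both lower in MU12, against 19.6% of all genes, of which 9.53% were lower and 10.1% higher in MU12.

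MU26 minus MU10 had 0 called members, against 15.5% of all genes, 6.99% higher and 8.54% lower in MU26. At an unadjusted p below 0.05 edgeR gave 8 members for this pair, against 31.8% of all genes. DESeq2 called 4, against 20.9% of all genes, and limma-voom 0, against 13.4%. The plot of the share of genes called in each pair sets these counts beside the whole table.

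**Figure D4:**
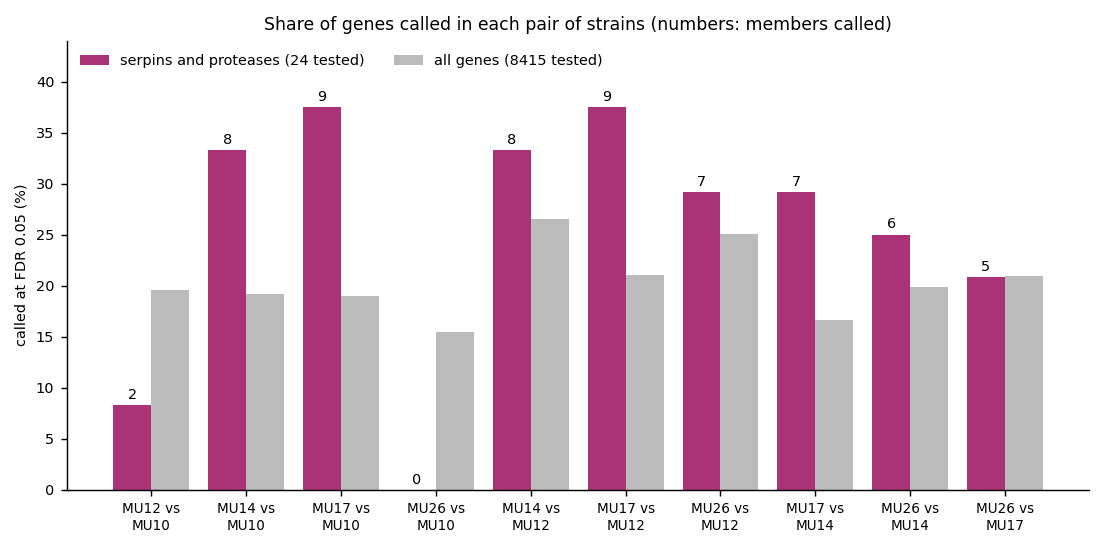
Bars give the percent of genes called at a false discovery rate of 0.05 for each pair of strains, for the 24 tested members (purple, with the number called above the bar) and for all 8415 tested genes (grey). The members exceed all genes in 7 of the 10 pairs and fall below them for MU12 against MU10, MU26 against MU10 and, by a small margin, MU26 against MU17.

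A strain was taken to stand apart for a gene where all 4 of its pairs were called and had 1 sign. Of all tested genes 14.5% met this for at least 1 strain, and of the 24 members 5 did. All 5 were lower in their strain, SPH93 in MU12, Spn42Dc and Spn42Dd in MU14, and Sp7 and spirit in MU17. Such lower genes made up 2.15% of all genes for MU12, 0.879% for MU14 and 1.18% for MU17, against 0.784% for MU10 and 1.85% for MU26, which had no such member. Counting any strain, such lower genes were 6.84% of all genes. Members that were higher in 1 strain than in all others numbered 0 in edgeR, where such genes were 1.30% of all genes for MU10, 2.83% for MU12, 1.22% for MU14, 1.76% for MU17 and 1.49% for MU26. Counting any strain, such higher genes were 8.59% of all genes in edgeR. Limma-voom also gave 0 members (8.84% of all genes) and DESeq2 gave 1, SPE in MU17 (11.4%). At an unadjusted p below 0.05 edgeR gave 3 (17.2%), which were psh in MU12, SPE in MU17 and Spn42Dd in MU26. In the lower direction it gave 8 at that p, against 14.9% of all genes.

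The other 13 members averaged below 15 counts per library and were not tested. Spn47C was the most uneven of them, with 39 and 32 counts in MU10, 9, 12 and 14 in MU14, 6 and 8 in MU12, 3 and 7 in MU26, and 2 and 2 in MU17. It was called across strains when no filter was used (adjusted p = 0.0017). Spn77Bc had 3 to 25 counts per library, Spn77Bb 0 to 14, Spn38F 1 to 13, Spn28F 2 to 12 and Spn85F 0 to 9. Spn28Da and Spn75F had 0 to 4, Spn31A 0 to 3 and Spn28B 0 to 2 counts per library, and Spn28Db had 1 count in all. Spn53F had 0 counts in all libraries, which allows up to 3 counts in each. All 1279 exon bases of Spn53F are also covered by an antisense RNA gene. Read pairs that fitted more than 1 gene were discarded, so this 0 is less certain.

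Genes on both sides of the cascade were read from the same fit. Of 7 recognition genes with the Toll ligand spz, 4 were called across strains, PGRP-SD, GNBP1, GNBP2 and GNBP-like3. Of 8 further serpins and proteases of Toll activation, nec and Ser7 were tested, and Ser7 was called. Of 8 intracellular Toll components 3 were called, the adaptors Myd88 and tub and the transcription factor dl. Of 7 melanization genes 4 were called, the prophenoloxidases PPO1, PPO2 and PPO3 and the enzyme Ddc. Of the Toll effectors 5 of 17 tested were called, Drs, BomS1, BomS6, BomT2 and Bbd, and of the Imd effectors 3 of 11, AttC, CecB and CecC. All of these called effectors were highest in the first MU17 library. BomS1 had 649 CPM there and 8.86 in the second MU17 library, with 0 pairs called. The recognition gene GNBP-like3 had 117 and 9.90 CPM in these libraries. All these shares stand beside the 48.3% of all genes called across strains.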

How the data were processed

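According to the study's methods, poly-A RNA from pooled fat bodies was sequenced as read pairs, which the authors mapped with NextGenMap to the FlyBase transcriptome. Pairs that fitted more than 1 gene were discarded, and the deposited values are raw counts per gene, summed over transcripts and not normalised. Strand use in the counting is not given in the sources used here. Genes were matched to the BDGP6.54 annotation (Release 6 coordinates), 13843 by FlyBase identifier and 75 by CG number, with 13 unmatched and all 37 members by identifier. Deposited gene lengths, used for CPM per kilobase only, equalled the summed exons of the annotation for 74.4% of genes.

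Each library took its group from the strain label. Counts were scaled by TMM and fitted with a coefficient for each strain over all 11 libraries, using edgeR 4.0.16 in R 4.3.3, for the 8415 genes that averaged 15 counts or more, and quasi-likelihood tests were made across strains and in 10 pairs with Benjamini-Hochberg adjustment at 0.05. The common biological coefficient of variation was 0.225. The script was tested on simulated counts. Replicates differed by more than counting error (chi-square per degree of freedom 54.0 to 332), and p-values measure only the spread between pools of 1 line.

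Alternatives were RLE and upper-quartile scaling, no filter, filterByExpr, DESeq2 (version 1.42.0), limma-voom (limma version 3.58.1), a replicate block, and leaving out each library or MU17. Values per library are given for the 12 members with the smallest adjusted p, those that set a strain apart, and SPE, grass, psh, Hayan, modSP, Sp7, MP1, Spn27A, Spn77Ba and Spn28Dc. The 3 called genes with the widest range were to be named from each further list, and nec always. The other called genes of those lists, with no values, and the remaining members were named after their values were seen. The naming rule for the members and the lists were drawn up with earlier results of these data known. Strain extremes without each library were added after seeing the data.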

Additional observations from a re-analysis of the deposited data

How the results depend on the processing

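None of the 17 members named by the rule, each in the difference between its highest and lowest strain, reversed direction in the alternatives that could be fitted, 19 for 10 members and 18 for the 7 whose difference involves MU17. Each difference was picked from these same values, so a reversal was unlikely from the start and its absence says little about stability. Members not called across strains, such as Spn28Dc and Spn77Ba, did not reverse either. Without strain MU17, Sp7 and Spn42De were not called across strains. The call count across strains, 14, stayed within 1.5 times throughout, and the 14 genes were kept under RLE and upper-quartile scaling, filterByExpr, DESeq2 and limma-voom. Pair counts moved further. MU26 minus MU10, with 0 called, had 1 with upper-quartile scaling, 1 with no filter, 1 with filterByExpr, 4 with DESeq2 and 1 without strain MU17. MU26 minus MU14, with 6, had 3 with upper-quartile scaling. Shares of all genes at these settings, except DESeq2 given above, are not reported here. These counts therefore do not show whether the members moved apart from the whole table. Whether replicate numbers paired the samples was not settled, as deviations of same-numbered libraries correlated between -0.315 and 0.267. For the first replicates the correlations were positive among MU10, MU12, MU14 and MU26 (0.0706 to 0.267) and negative with MU17. In strains with 2 libraries the deviations mirror each other, so the second replicates add little. With the replicate number as a block, 10 of the 14 members remained called across strains (MP1, SPE, Spn42Da and modSP were lost; SPE had an adjusted p of 0.073), MU14 minus MU12 had 5 in place of 8, and MU26 minus MU14 had 3 in place of 6. The shares of all genes called fell too under the block, to 37.2% against 48.3% across strains, 19.8% against 26.5% and 12.4% against 19.9%.

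Leaving out 1 library at a time gave 11 to 15 members across strains and 4 to 5 members that set a strain apart. The pairs ranged from 0 to 3 for MU12 minus MU10, 4 to 10 for MU14 minus MU10, 4 to 9 for MU17 minus MU10, 0 to 3 for MU26 minus MU10, 3 to 7 for MU14 minus MU12, 3 to 8 for MU17 minus MU12, 0 to 7 for MU26 minus MU12, 5 to 8 for MU17 minus MU14, 2 to 6 for MU26 minus MU14 and 4 to 8 for MU26 minus MU17. Counts of a pair moved by over 1.5 times without a library of MU10 (MU12 minus MU10, MU14 minus MU10, MU17 minus MU10, MU14 minus MU12), of MU12 (MU12 minus MU10, MU26 minus MU10, or, for its second library, MU14, MU17 and MU26 minus MU12), of MU14 (MU14 minus MU12 for each, MU14 minus MU10 for the first, MU26 minus MU14 for the second and the third), of MU17 (MU26 minus MU10 for each, MU17 minus MU10, MU17 minus MU12 and MU26 minus MU17 for the second) and of MU26 (MU26 minus MU12 for each, MU26 minus MU14 for the first, MU26 minus MU10 for the second). The share of all genes called mostly fell with these counts, for instance to 9.25% and 8.84% for MU12 minus MU10 without an MU10 library, against 19.6%. A strain left with 1 library was assumed to vary like the others. The cause was not tested. Members with few counts, such as Spn42De and Spn100A, rest on the least data.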
